A study of Mus musculus with 12 samples.

Results

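The libraries described here were those of PMJ2R, a mouse peritoneal macrophage line, grown with or without the kinase inhibitor rebastinib. They were chosen by their column names in the count table, which gave 6 of the 12 libraries of the series. PMJ2R is labelled as a female line from peritoneal lavage, of C57BL6J genotype and carrying the v-raf and v-myc oncogenes, so that control and treated cells share both oncogenes. The control group was untreated and the other group received 5 nM rebastinib for 6 h, with 3 libraries in each group. The remaining 6 libraries are the same treatment and control of ID8, a mouse ovarian cancer line. The labels do not say whether the 3 libraries of a group were separate cultures, and the p-values therefore reflect the spread of these libraries alone, which could be technical. One line transformed by oncogenes limits PMJ2R as a model of the macrophages of a peritoneal cavity. Chemotherapy arms named in the series design are not analysed here.

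Rebastinib is a small molecule that inhibits TIE2, the angiopoietin receptor encoded by Tek, which is carried by endothelial cells and by a set of macrophages that support vessel growth. It also inhibits other tyrosine kinases. Macrophages depend on the receptor CSF1R for survival and growth, on the transcription factor PU.1 (Spi1) for their identity, and on Toll-like, cytokine, interferon and Fc receptors to sense microbes and antibody. The RAF oncogene drives the ERK kinase cascade, whose output is limited by feedback genes of the sprouty and dual-specificity phosphatase families, and MYC drives ribosome production and cell division. The amino acid response is a stress programme in which the factor ATF4 induces genes of amino acid import and synthesis.

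The PMJ2R libraries held the transcripts of a macrophage. Adgre1, the gene of the surface protein F4/80, was measured at 217, 203 and 178 CPM in the control libraries and 328, 309.8 and 309.9 CPM in the rebastinib libraries. Spi1 was at 152, 159.7 and 184 CPM in the control libraries and 203, 208 and 201 CPM in the rebastinib libraries, and Csf1r was at 281, 261 and 261 CPM in the control libraries and 149, 146 and 144 CPM in the rebastinib libraries. Of 27 genes listed as macrophage identity genes, 23 had a mean of at least 1 CPM, where CPM is a count scaled to 1000000 counts of the library, and their summed level was 3948 to 4092 CPM in control and 3864 to 3911 CPM with rebastinib on library totals. Markers of T, NK and B cells, fibroblasts and ovarian epithelium were low, while those of dendritic cells and, in control, of neutrophils were measured at higher levels. The 18 T and NK cell markers summed to 7.39 to 8.68 CPM in control and 2.35 to 4.55 CPM with rebastinib, with Cd8a, Trbc2, Ncr1, Nkg7, Gzma and Gzmb at 0 in all 6 libraries. B cell markers summed to 2.31 to 3.07 and 1.05 to 1.38 CPM, ovarian epithelial and mesothelial markers to 0.862 to 1.47 and 0.941 to 2.42 CPM, and fibroblast markers to 7.57 to 8.13 and 7.26 to 9.09 CPM. Neutrophil markers summed to 28.8 to 33.0 CPM in control and 3.01 to 3.42 CPM with rebastinib, most of it from Cxcr2 and Csf3r, while S100a9, Ly6g, Ngp and Retnlg were at 0. Csf3r falls within the naming rule given below, and its values had been seen when it was named here. Dendritic cell markers summed to 204 to 239 and 154 to 164 CPM. In control most of it came from Bst2 (2934, 3230 and 2641 counts) and Cd83 (1489, 1642 and 1274 counts). Both appear below, as an interferon-stimulated gene and among the activation genes. Batf3 had 586, 658 and 615 counts in control. Xcr1, Clec9a, Cd209a, Siglech and Ccr7, named after their values were seen, had at most 16 counts in any library. All of these sums are on library totals, whereas the values of Adgre1, Spi1 and Csf1r are TMM-scaled. TMM factors, of the scaling used below, were 1.207 to 1.225 in control and 0.8191 to 0.8298 with rebastinib. A sum on library totals therefore reads lower with rebastinib, relative to control, than on the TMM scale. With TMM, 2 of 6 tested dendritic cell markers rose and 3 fell. In bulk RNA, fewer cells of a type and less RNA per cell cannot be told apart.

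The make-up of the libraries differed between the groups, and every fold change below depends on how this is scaled. Control libraries held 23200008 to 27070556 counts and rebastinib libraries 19025504 to 20242502. A cluster of 3 genes that overlap ribosomal RNA sequence, CT010467.1, Gm26917 and Gm42418 (GRCm38, chr17:39843013-39848827), took 0.0927%, 0.172% and 0.121% of the counts in control and 5.85%, 5.99% and 5.63% with rebastinib. CT010467.1 and Gm42418 lie on opposite strands and share 73.9% and 99.5% of their exon bases with each other. Another gene, AY036118, covers 37.4% and 50.4% of them. The mitochondrially encoded genes took 3.76% ± 0.430 and 5.64% ± 0.204 (SD, n = 3), and cytosolic ribosomal protein genes 5.33% ± 0.385 and 7.81% ± 0.160. The 20 most abundant genes of each library together took 8.67% ± 0.473 in control and 17.01% ± 0.0995 with rebastinib. By mean level over the 6 libraries, the 20 most abundant genes include rRNA-overlapping, mitochondrially encoded and ribosomal protein genes. Their share is therefore not a shift separate from those above. The groups did not overlap in any of these shares, and the exact two-sided permutation p was 0.1 for each, the smallest that 3 libraries against 3 allow. A list of nuclear long noncoding RNAs took 0.434% ± 0.00405 and 0.441% ± 0.0163, and the groups overlapped (exact permutation p = 0.6). On library totals, the number of genes with at least 1 CPM fell from 12548 to 11577 on average. The number of genes with any count was 21394 to 23386 in control and 21895 to 22575 with rebastinib, and these ranges overlapped.

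**Figure D1:**
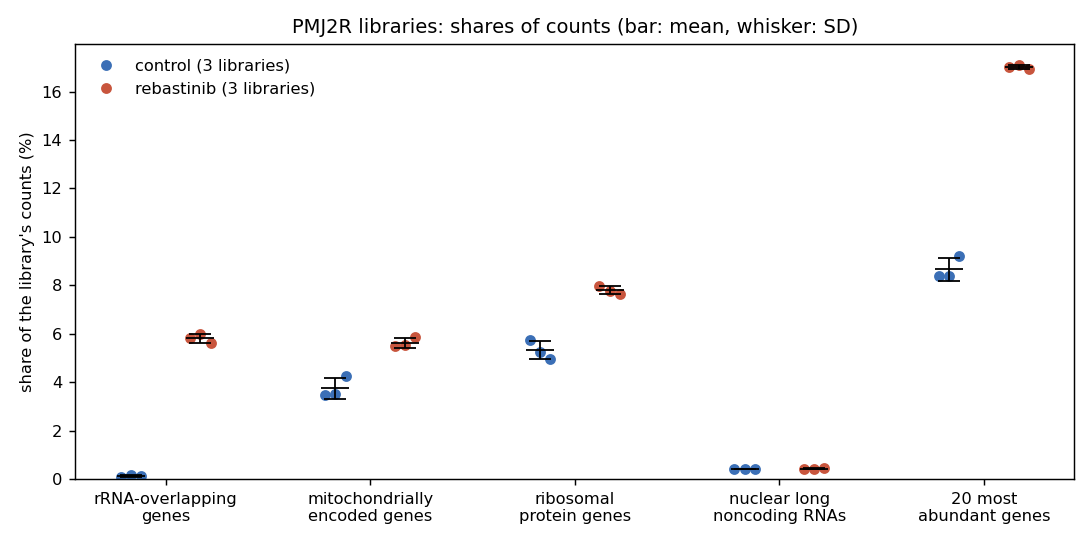
Share of each PMJ2R library's counts (percent, vertical axis) taken by 5 kinds of gene (horizontal axis), in 3 control and 3 rebastinib libraries, with the mean and SD. The rRNA-overlapping genes lay between 0.0927% and 0.172% in control and between 5.63% and 5.99% with rebastinib, and the nuclear long noncoding RNAs overlapped between the groups.

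Most expressed genes differed between the groups. Of 14010 genes that passed the expression filter, 5623 were called higher with rebastinib and 6107 lower by edgeR's quasi-likelihood test at an adjusted p of 0.05, which is 83.7% of the genes tested, or 40.1% higher and 43.6% lower. A change shown to exceed 2-fold was called for 1597 higher and 2906 lower genes, which is 32.1%, or 11.4% and 20.7%. The values of the 2 groups did not overlap for 84.4% of the tested genes. The median log2 fold change was -0.05 with TMM, the scaling used for all values below unless another is named. With library totals as the only scaling, the median was -0.60 and 3104 genes were called higher and 8677 lower. With TMM factors computed without the rRNA-overlapping, mitochondrial and ribosomal protein genes, the median was -0.24 with 4741 higher and 6950 lower. With trends of transcript length and GC content removed, the balance turned the other way, with a median of 0.08, 6212 genes higher and 5410 lower. The counts of gene groups below are to be read against these shares, since a group with shares near 40.1% higher and 43.6% lower is at the background. The members named are those that passed the expression filter, which removes genes low in both groups.

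**Figure D2:**
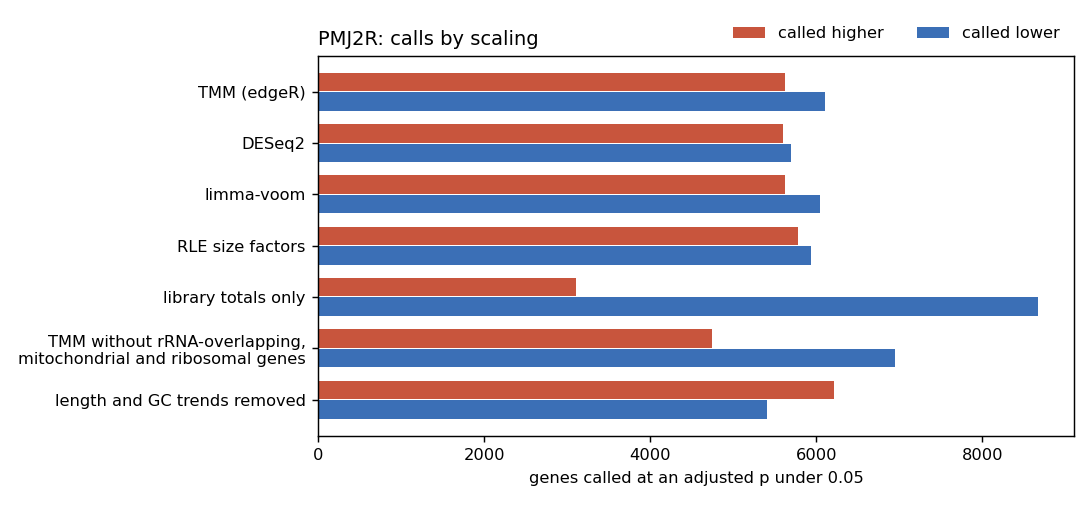
Number of genes called higher and lower with rebastinib in PMJ2R (horizontal axis) under 7 fits (vertical axis), each at an adjusted p under 0.05. The TMM fit called 5623 genes higher and 6107 lower, and library totals alone gave 3104 and 8677.

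Some of the gene groups below are tied by a short sequence motif that is known upstream of their members, and the stretches shown here are those where the motif of a group occurs in a gene whose values are described later. The amino acid response element is the site of ATF4 and its partners, the interferon-stimulated response element that of a complex that holds STAT2 and IRF9, the cell cycle homology region that of the complex that represses mitotic genes outside G2/M, and the CLEAR element that of TFEB and its relatives at lysosomal genes. Each line is the 250 bases before the gene start, 5′ to 3′ on the gene's strand, from the RefSeq promoter table for GRCm38.p6, with matches to the motif in capitals on either strand. The motif letters were TGATGNAA for the amino acid response element, GAAA, 2 of any base and GAAA again for the interferon-stimulated response element, TTTGAA for the cell cycle homology region and TCACGTGA for the CLEAR element, where N is any base. The windows are chr6:7693210-7693459, minus strand (Asns), chr3:50443614-50443863, minus strand (Slc7a11), chr10:128270248-128270497, plus strand (Stat2), chr11:82991831-82992080, minus strand (Slfn9), chr1:136467598-136467847, plus strand (Kif14) and chr7:142387828-142388077, minus strand (Ctsd).
Asns: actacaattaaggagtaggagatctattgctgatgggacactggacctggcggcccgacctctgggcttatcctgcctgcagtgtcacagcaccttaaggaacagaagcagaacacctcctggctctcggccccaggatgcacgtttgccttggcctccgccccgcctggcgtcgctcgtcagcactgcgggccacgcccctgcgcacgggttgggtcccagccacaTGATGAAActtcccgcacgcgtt
Slc7a11: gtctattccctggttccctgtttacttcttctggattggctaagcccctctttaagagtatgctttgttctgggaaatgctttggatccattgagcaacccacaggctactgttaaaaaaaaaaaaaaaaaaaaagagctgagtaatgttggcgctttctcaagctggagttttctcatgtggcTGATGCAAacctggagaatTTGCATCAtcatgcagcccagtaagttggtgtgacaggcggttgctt
Stat2: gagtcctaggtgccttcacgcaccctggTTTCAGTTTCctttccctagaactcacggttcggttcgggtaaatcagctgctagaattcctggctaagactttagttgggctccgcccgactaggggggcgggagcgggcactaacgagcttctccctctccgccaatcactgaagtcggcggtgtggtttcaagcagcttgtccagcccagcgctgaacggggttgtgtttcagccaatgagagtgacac
Slfn9: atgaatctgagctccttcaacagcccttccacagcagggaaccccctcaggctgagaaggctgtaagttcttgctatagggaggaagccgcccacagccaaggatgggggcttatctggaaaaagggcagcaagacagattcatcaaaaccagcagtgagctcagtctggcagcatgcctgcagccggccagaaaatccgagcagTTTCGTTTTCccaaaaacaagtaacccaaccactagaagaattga
Kif14: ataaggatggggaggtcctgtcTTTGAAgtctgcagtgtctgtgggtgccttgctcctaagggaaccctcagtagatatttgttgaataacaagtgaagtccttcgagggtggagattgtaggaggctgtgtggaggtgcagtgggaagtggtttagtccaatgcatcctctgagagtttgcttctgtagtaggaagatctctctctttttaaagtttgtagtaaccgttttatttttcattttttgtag
Ctsd: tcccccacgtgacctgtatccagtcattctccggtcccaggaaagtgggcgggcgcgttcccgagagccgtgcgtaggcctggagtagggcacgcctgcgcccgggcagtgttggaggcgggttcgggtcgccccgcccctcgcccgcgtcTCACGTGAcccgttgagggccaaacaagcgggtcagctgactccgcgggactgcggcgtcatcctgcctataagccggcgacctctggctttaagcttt
The match in Asns starts 23 bases before the gene start, and Slc7a11 has 2 matches in opposite directions, 66 and 47 bases before it. Of the tested amino acid response genes, 27 were in the promoter table and 6 (22.2%) held the motif, against 3.91% of all 27025 genes of the table and 2.47% of the tested genes in it. The share was 14 of 33 (42.4%) for the interferon-stimulated genes and their element, against 3.46% and 3.17%. It was 20 of 58 (34.5%) for G2/M genes, against 18.3% and 13.1%, and 6 of 47 (12.8%) for lysosomal genes, against 0.91% and 1.85%. The other motifs searched stood closer to the tested genes or rested on few members. The E-box CACGTG, which the CLEAR letters contain, was in 4 of 46 MYC targets and ribosome genes (8.70%), against 10.1% of tested genes. The antioxidant element TGACNNNGC was in 7 of 39 NRF2 genes (17.9%), against 13.9%, and the xenobiotic element GCGTG in 4 of 7 genes of its list (57.1%), against 49.9%. The cyclic AMP element TGACGTCA was in 3 of 25 immediate-early genes, against 3.13% of tested genes, the metal element TGCACTC in 2 of 16 metallothionein and zinc transport genes, against 2.84%, and the sterol element TCACNCCAC in 1 of 23 cholesterol genes (4.35%), against 1.25%. A match in these letters is not evidence of binding, and the amino acid response motif was added after values of its genes had been seen. Among interferon-stimulated genes the motif was found in 11 of the 26 lower members and in all 3 higher members in the table. For the amino acid response it was in 4 of 22 higher and 1 of 4 lower members. The G2/M motif was in 2 of 4 higher and 16 of 51 lower members, and the lysosomal motif in 4 of 24 and 1 of 20.

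The targets of rebastinib and their ligands were examined first. Tek, the nominal target, had 4, 4 and 0 counts in the control libraries and 2, 0 and 0 with rebastinib. Tie1, Kdr and Kit had at most 5 counts in any library, where 3 counts in a whole group correspond to 0.0398 CPM in control and 0.0514 CPM with rebastinib. These receptors were at or near the limit of detection in both groups. Csf1r, in contrast, was measured at 7971, 8511 and 7912 counts in control and 2333, 2425 and 2271 with rebastinib. It fell by 0.87 on the log2 scale (± 0.047 SE, adjusted p = 5.04e-12), and an antisense gene, Hmgxb3, covers 15.1% of its exon bases. Among cytoplasmic tyrosine kinases, Abl1 (90.8 to 37.8 CPM, control to rebastinib) and Fgr (9.53 to 1.78 CPM) fell and Lyn (64 to 136 CPM) and Abl2 (189.8 to 285 CPM) rose. Abl2 no longer passed the test on library totals (log2 fold change 0.03, adjusted p = 0.519, edgeR). Ligands also moved both ways. Vegfa, the vascular endothelial growth factor, was at 29.6, 30.6 and 36.8 CPM in the control libraries and 185, 176 and 186 CPM in the rebastinib libraries, a log2 fold change of 2.50 ± 0.069 (SE), adjusted p = 2.00e-15. Angpt2, a ligand of TIE2, was at 1.2, 0.827 and 0.661 CPM in the control libraries and 3.58, 4.74 and 3.3 CPM in the rebastinib libraries and rose, while Flt3l (2.16 to 0.703 CPM) fell. Angptl2, an angiopoietin-like gene on the same list and not counted here as a TIE2 ligand, fell from 35.7 to 7.69 CPM. Csf1, a ligand of CSF1R, rose from 5.55 to 14.7 CPM. In all, 12 of the 24 listed genes could be tested, and 5 rose and 7 fell.

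ERK feedback and immediate-early genes contained some of the largest increases. Spry4, a sprouty inhibitor of receptor signalling to RAS, was at 1.9, 2.82 and 3.01 CPM in the control libraries and 58.8, 64.5 and 57.2 CPM in the rebastinib libraries, which is a log2 fold change of 4.54 ± 0.11 (SE), adjusted p = 2.42e-16. Every rebastinib library was far above every control library. Dusp5, a nuclear phosphatase of ERK, was at 1.9, 2.97 and 2.44 CPM in the control libraries and 19.1, 16.3 and 17.1 CPM in the rebastinib libraries, and Dusp16, Etv1, Ier3 and Hbegf had log2 fold changes of 2.30, 2.21, 3.16 and 2.66. Etv1 encodes an ETS factor and Hbegf a ligand of the EGF receptor. Il1rl1, which encodes the interleukin-33 receptor and is on the same list, fell from 18.6 to 3.58 CPM. Of 22 tested feedback genes, 15 rose and 6 fell, with a median log2 fold change of 0.63, against -0.05 for all tested genes. With library totals alone 9 rose and 10 fell, and the median was 0.07.

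Junb, an AP-1 subunit, was at 77.7, 77.1 and 83.1 CPM in the control libraries and 403, 403 and 384 CPM in the rebastinib libraries. Ier2 rose from 17.8 to 164 CPM, Klf6 from 31.8 to 127 CPM and Ppp1r15a, a subunit of the phosphatase that reverses translational stress, from 11.4 to 58.2 CPM. Jund fell from 78.6 to 28.7 CPM, and a gene model on the opposite strand covers 52.6% of its exon bases. In the immediate-early list, 19 of 32 tested members rose and 9 fell with a median of 0.70. On library totals, 15 rose and 14 fell and the median was 0.14.

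The amino acid response held many of the larger increases. Cth, cystathionine gamma-lyase of cysteine synthesis, was at 1.37, 1.59 and 1.82 CPM in the control libraries and 45.6, 40.6 and 39.5 CPM in the rebastinib libraries, a log2 fold change of 4.71 ± 0.11 (SE), adjusted p = 1.97e-16. Slc7a11, the cystine importer, was at 11.5, 11.6 and 11.4 CPM in the control libraries and 90.3, 86 and 92.7 CPM in the rebastinib libraries (2.96 ± 0.063 (SE), adjusted p = 5.73e-17). Asns, asparagine synthetase, was at 191, 189 and 194 CPM in the control libraries and 667, 659.9 and 658 CPM in the rebastinib libraries (1.79 ± 0.043 (SE), adjusted p = 2.05e-16). The 3 rebastinib libraries lay close together for each gene and above all control libraries. Sesn2 and Ddit4, which restrain the growth kinase mTORC1, rose from 61 to 369 CPM and from 34.2 to 236 CPM. Ero1l, an oxidase of the endoplasmic reticulum, rose from 52.7 to 344 CPM, and the serine synthesis enzymes Psat1 and Phgdh had log2 fold changes of 1.04 and 1.05. The amino acid transporter pair Slc7a5 and Slc3a2 had 1.43 and 1.44, and Eif4ebp1, a brake on translation, had 1.65. Of 33 tested genes of this programme, 27 rose and 5 fell with a median of 1.02, and 14 exceeded 2-fold upwards and 1 downwards, that one being Stc2 (64.5 to 26.7 CPM). The direction held on library totals, with 21 higher, 9 lower and a median of 0.46.

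Other branches of the stress response did not move as one. Xbp1, a transcription factor of the unfolded protein response, was at 159.6, 161 and 152 CPM in the control libraries and 16, 17.6 and 19.5 CPM in the rebastinib libraries, a log2 fold change of -3.15 ± 0.066 (SE), adjusted p = 5.30e-17, whereas Ern1, the kinase and nuclease that splices Xbp1 RNA, rose from 33.9 to 133 CPM. Derl1, a factor of protein export for degradation, rose from 94.1 to 448 CPM, and Atf6 from 126 to 259 CPM. Hspa5, the main chaperone of the compartment, had a log2 fold change of 0.40, which became -0.16 on library totals. In the list of the unfolded protein response, 21 of 34 rose and 9 fell with a median of 0.42, a median that turned to -0.14 on library totals. Cytosolic tRNA synthetases included 12 of 20 higher and 3 lower with a median of 0.54, which turned to -0.02 on library totals. Sars, Rars and Gars had log2 fold changes of 1.36, 1.62 and 1.08. Of 17 mitochondrial tRNA synthetases, 6 rose and 10 fell. Lars2, the mitochondrial leucyl-tRNA synthetase, was at 108, 161 and 117 CPM in the control libraries and 2139, 2170 and 2052 CPM in the rebastinib libraries. It stands apart from its family and moved with the share of rRNA-overlapping counts, whose part in this value was not tested.

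**Figure D3:**
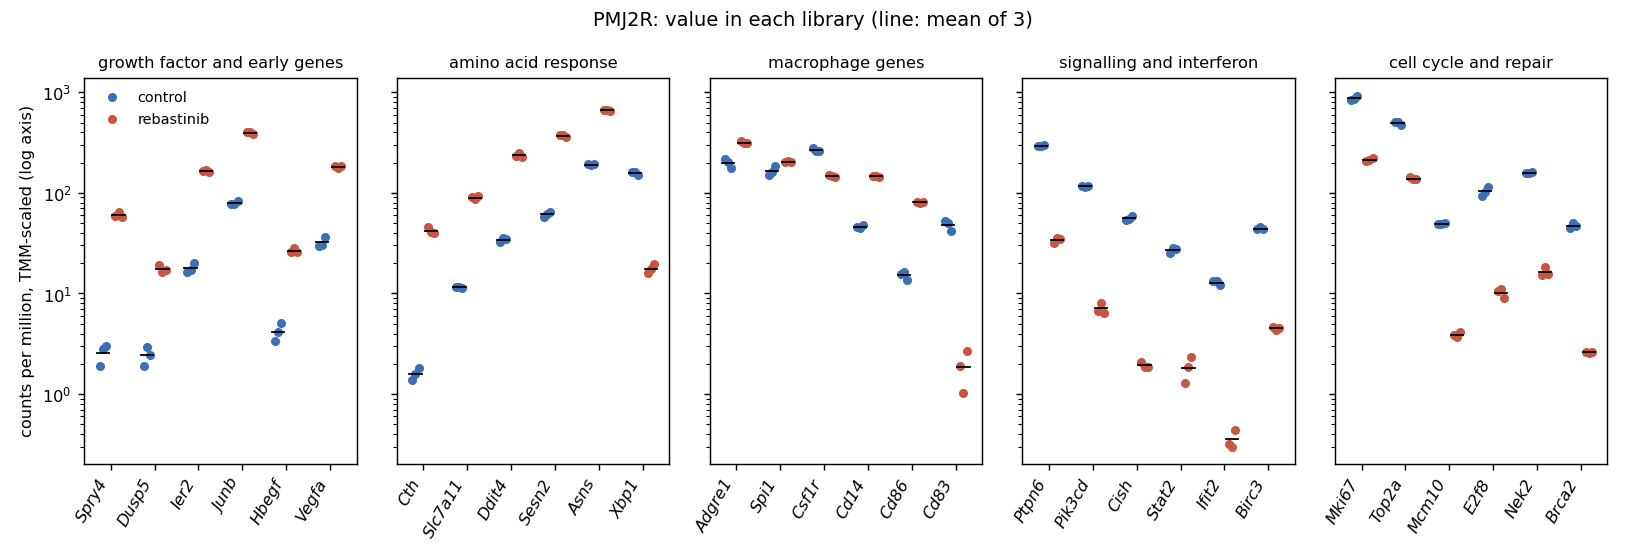
TMM-scaled level in CPM (log axis) of 30 named genes in each of the 6 PMJ2R libraries, with the mean of each group as a line, in 5 panels by role. For each gene shown the 3 control and the 3 rebastinib libraries do not overlap. Spry4 lay between 1.90 and 3.01 CPM in control and 57.2 and 64.5 CPM with rebastinib, and Brca2 between 44.9 and 50.4 CPM and 2.58 and 2.62 CPM.

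Genes of macrophage identity changed individually and in both directions. Lyz2, lysozyme, rose from 122 to 337 CPM, Cd14, the co-receptor for lipopolysaccharide, from 46 to 147 CPM, Cd68 from 275 to 483 CPM, and Laptm5 from 655 to 1419 CPM. Cebpa and Irf8, transcription factors of myeloid differentiation, fell from 28.9 to 3.03 CPM and from 25.6 to 3.51 CPM. Fcgr1 and Fcgr3, activating receptors for antibody, fell from 41.8 to 7.51 CPM and 121 to 44 CPM, and Sirpa, the receptor for CD47, fell from 303 to 131 CPM. Adgre1 had a log2 fold change of 0.66 with TMM and 0.10 on library totals, where its adjusted p was 0.126. Spi1 had 0.30 with TMM and -0.25 on library totals. Itgam, whose exon bases are shared for 68.7% with another gene model, had 0.69 and 0.13. Among 23 tested identity genes 12 rose and 9 fell with a median of 0.15, which was -0.41 on library totals and -0.04 with TMM factors computed without the abundant classes, so the list had no direction that held under every scaling.

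Receptors that guide macrophages to inflamed sites were mostly lower. Cxcr2, a receptor for CXC chemokines, was at 14.7, 16 and 16.8 CPM in the control libraries and 0.639, 0.781 and 0.571 CPM in the rebastinib libraries. C3ar1, the receptor for complement fragment C3a, was at 10.7, 9.92 and 11 CPM in the control libraries and 0.383, 0.54 and 1.01 CPM in the rebastinib libraries, whereas C5ar1, the receptor for C5a, was at 0.0704, 0.184 and 0.397 CPM in the control libraries and 2.81, 3.12 and 2.73 CPM in the rebastinib libraries. The groups did not overlap for any of these genes, with C5ar1 higher and the others lower. Cxcr4 and P2ry6 fell from 19.2 to 4.72 CPM and from 21.9 to 4.47 CPM. Of 11 tested receptors, 3 rose and 8 fell with a median of -2.02, and on library totals 2 rose and 8 fell. Cxcr2 is also on the list of neutrophil markers, whose summed level fell in the same libraries. Chemokine ligands were mixed. Ccl2, which attracts monocytes, was at 8.63, 6.12 and 9.58 CPM in the control libraries and 62, 61.4 and 63.4 CPM in the rebastinib libraries, and Ccl3 and Ccl7 rose from 4.81 to 18.4 CPM and 1.14 to 4.9 CPM, while Cx3cl1 fell from 7.33 to 1.08 CPM. Of 9 tested ligands 5 rose and 4 fell, and their median of 0.43 turned to -0.13 on library totals.

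Activation genes and co-stimulatory molecules also split. Cd86, a ligand of CD28 on T cells, was at 15.8, 16.2 and 13.5 CPM in the control libraries and 81.8, 78.8 and 81.9 CPM in the rebastinib libraries. Cd83, a marker of mature antigen-presenting cells, was at 52.5, 50.3 and 42.1 CPM in the control libraries and 1.92, 1.02 and 2.66 CPM in the rebastinib libraries, and Cd40, the receptor for CD40 ligand, was at 5.11, 4.81 and 3.87 CPM in the control libraries and 0.383, 0.721 and 0.571 CPM in the rebastinib libraries. The 3 genes thus separated the groups without overlap, with Cd86 higher and Cd83 and Cd40 lower. Tnf rose from 8.9 to 20.1 CPM, and Ptgs2, the inducible cyclooxygenase, from 0.807 to 11.4 CPM, while Hpgd, which breaks down prostaglandins, fell from 185 to 14.3 CPM. Of 9 tested genes of classical activation, 4 rose and 4 fell, and the sign of their median changed with the scaling (-0.19 with TMM and 0.16 with length and GC trends removed). For alternative activation, Stat6, the factor downstream of interleukin-4, fell from 97.8 to 13.6 CPM, its receptor chain Il4ra from 16.2 to 5.16 CPM, and Irf4 from 6.05 to 0.441 CPM, and 10 of 16 tested genes fell and 5 rose. Checkpoint and phagocytosis signals had 13 of 21 lower and 5 higher with a median of -1.001. With length and GC trends removed 13 fell and 6 rose and the median was -0.71. Icosl, the ligand of ICOS, fell from 11.5 to 0.681 CPM and Vsir, which encodes VISTA, from 43.4 to 11.6 CPM, while Adora2b, an adenosine receptor, rose from 1.06 to 19 CPM and Cd47 from 31.6 to 71 CPM.

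Interferon-stimulated genes were among the groups with the lowest medians. Ifit2, an antiviral protein, was at 13.2, 13.2 and 12 CPM in the control libraries and 0.319, 0.3 and 0.444 CPM in the rebastinib libraries, a log2 fold change of -5.16 ± 0.19 (SE), adjusted p = 4.27e-14. Stat2, a subunit of the factor that transmits type I interferon signals, was at 25.4, 28.1 and 27.6 CPM in the control libraries and 1.28, 1.86 and 2.35 CPM in the rebastinib libraries, and Slfn9 was at 27, 26.8 and 25.6 CPM in the control libraries and 1.85, 1.62 and 1.27 CPM in the rebastinib libraries. Every rebastinib library was below every control library for these genes. Parp14 and Ifi203 had log2 fold changes of -5.47 and -4.04, and Eif2ak2, the kinase PKR, had -2.40. Bst2 rose from 96.5 to 160.5 CPM. In total 33 of 43 tested genes fell and 4 rose with a median of -1.84, and 27 fell by more than 2-fold, against 20.7% of all tested genes. The median was -2.40 on library totals and -1.24 with length and GC trends removed. The sensors and regulators of this pathway had 19 of 25 lower and 6 higher. Mavs, the adaptor for RNA sensing, fell from 34.4 to 3.47 CPM, and Aim2, a sensor of cytosolic DNA, rose from 102 to 318 CPM.

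Receptors and adaptors upstream of NF-kB were mostly lower too. Tirap and Tab1, which link Toll-like receptors to kinases, fell from 36.9 to 5.4 CPM and 39.6 to 2.09 CPM, and Tlr7 and Cd180 fell from 87.1 to 26.8 CPM and 61.9 to 15.8 CPM. Tollip, an inhibitor of the pathway, and Tab2 rose from 34.5 to 170.1 CPM and 103 to 268 CPM. Of 30 tested Toll-like receptor genes 20 fell and 6 rose with a median of -0.70. With length and GC trends removed 17 fell and 8 rose and the median was -0.63. Birc3, an NF-kB target and ubiquitin ligase, was at 43.5, 45.3 and 43.5 CPM in the control libraries and 4.66, 4.38 and 4.57 CPM in the rebastinib libraries. Map3k14, the kinase of the noncanonical pathway, and Tnip3 fell from 18.5 to 1.72 CPM and 24.2 to 2.18 CPM, and Nfkbiz and Rel rose from 2.21 to 13 CPM and 72.1 to 166 CPM. In that list 18 of 29 fell and 6 rose with a median of -0.78, and with those trends removed 17 fell and 10 rose with a median of -0.34.

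Cytokine signalling through JAK and STAT proteins had 23 of 38 lower and 11 higher with a median of -0.88. With length and GC trends removed 22 fell and 12 rose and the median was -0.53. Cish, a feedback inhibitor induced by STAT5, was at 53.5, 55.3 and 58.3 CPM in the control libraries and 2.11, 1.86 and 1.84 CPM in the rebastinib libraries, a log2 fold change of -4.84 ± 0.1 (SE), adjusted p = 5.30e-17. Csf2rb, the shared receptor chain for GM-CSF and interleukin-3, fell from 35.5 to 5.56 CPM, Il10ra from 5.76 to 0.728 CPM and Tyk2 from 37.3 to 7.02 CPM. Jak1 rose from 132 to 294 CPM.

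Ptpn6, which encodes SHP-1, the phosphatase of inhibitory receptors, was at 289, 294 and 301 CPM in the control libraries and 31.7, 35.2 and 34.6 CPM in the rebastinib libraries, a log2 fold change of -3.12 ± 0.054 (SE), adjusted p = 1.28e-17. Pik3cd, the leukocyte subunit p110 delta of PI3K, was at 116, 115 and 117 CPM in the control libraries and 6.71, 8.11 and 6.47 CPM in the rebastinib libraries (-4.03 ± 0.075 (SE), adjusted p = 2.55e-17). Pik3cg and Pik3r5, of the G-protein-coupled PI3K, fell from 111 to 25.3 CPM and 32.4 to 3.83 CPM, and Akt2 rose from 93.4 to 245 CPM. Of 39 tested genes of the PI3K, AKT, mTOR and FOXO list, 26 fell and 12 rose with a median of -0.38, but with length and GC trends removed 15 fell and 17 rose and the median was -0.06. The family of protein tyrosine phosphatases that holds Ptpn6 had 6 of 19 lower and 9 higher. Among Fc receptors and the receptors that signal through tyrosine motifs, 20 of 35 fell and 9 rose. Syk, their kinase, fell from 82.3 to 24.8 CPM and Cd33 from 35.1 to 5.09 CPM, while the inhibitory receptor Fcgr2b rose from 71.5 to 211 CPM and Fcer1g and Clec4e from 140.1 to 286 CPM and 12.9 to 37.5 CPM.

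Genes of the phagosome and of antigen presentation were higher or mixed. V-ATPase subunits, which acidify lysosomes, had 14 of 18 higher and 4 lower with a median of 0.75, and Atp6v1h and Atp6ap1 rose from 75.1 to 241 CPM and 107 to 286 CPM. On library totals 9 rose and 4 fell. The cathepsins Ctsb and Ctsd rose from 346 to 1069 CPM and 127 to 359 CPM, and Lamp1 from 793 to 1771 CPM. A gene model on the same strand shares 34.4% of the exon bases of Ctsd. Sgsh, a heparan sulfatase, fell from 17.8 to 0.766 CPM. Over the whole lysosomal list 29 of 57 rose and 24 fell, and the median of 0.19 turned to -0.37 on library totals. For the NADPH oxidase, Ncf1 was at 129, 133 and 128 CPM in the control libraries and 43.6, 42.1 and 40.7 CPM in the rebastinib libraries, and Hvcn1, a proton channel, fell from 27.4 to 4.85 CPM, while Cyba rose from 129 to 209 CPM, and the list median of 0.44 turned to -0.12 on library totals. A gene on the opposite strand covers 44.2% of the exon bases of Hvcn1.

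MHC class I genes had 14 of 25 higher and 6 lower with a median of 0.42, and class II genes 10 of 19 and 5 with a median of 0.42, and both medians turned to -0.13 on library totals. B2m, the shared light chain, rose from 238 to 440.0 CPM, H2-K1 from 259.8 to 432 CPM, and Cd74, the invariant chain of class II, from 1011 to 2463 CPM. Rfx5, a factor at class II promoters, fell from 25.3 to 3.38 CPM, with 26.8% of its exon bases covered by a gene on the opposite strand.

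Cell death genes included the steepest named decrease. Bmf, a BH3-only killer protein, was at 11.8, 11.3 and 10.1 CPM in the control libraries and 0, 0.18 and 0.0634 CPM in the rebastinib libraries, with 0, 3 and 1 counts in the rebastinib libraries, a log2 fold change of -6.97 ± 0.3 (SE), adjusted p = 2.59e-13. Bid fell from 91.1 to 11.9 CPM and Bcl2, a survival protein, from 27.1 to 7.63 CPM. Bbc3 and Pmaip1, BH3-only proteins known as PUMA and NOXA, rose from 24.1 to 88 CPM and 22.3 to 61.4 CPM, and the survival gene Bcl2l1 rose from 170.3 to 431 CPM. Of 19 tested family members 10 fell and 6 rose, and with length and GC trends removed 9 fell and 9 rose. Inflammasome and cell death genes had 18 of 24 lower and 6 higher with a median of -0.96. Nlrp1b fell from 30.1 to 2.86 CPM, P2rx7, the ATP receptor upstream of NLRP3, from 35.5 to 3.63 CPM, and Nlrp10 from 12.9 to 0.648 CPM, while Txnip rose from 167 to 318 CPM. Among p53 targets 22 of 36 rose and 12 fell with a median of 0.35, which turned to -0.21 on library totals. Epha2 and Plk3 rose from 20.5 to 114 CPM and 6.66 to 37.7 CPM, and Gdf15, a stress cytokine, from 0.313 to 9.23 CPM. Cdkn1a, the cell cycle inhibitor p21, was at 267, 272 and 298 CPM in the control libraries and 275, 273 and 272 CPM in the rebastinib libraries, the groups overlapped, and its sign changed with the scaling (log2 fold change -0.03 with TMM, adjusted p = 0.6, edgeR).

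Most tested genes of energy metabolism and protein synthesis were called higher, by margins that depended on the scaling. All 76 tested nuclear genes of oxidative phosphorylation were called higher, with a median log2 fold change of 0.87, against 40.1% of all tested genes. On library totals 58 rose and 6 fell and the median was 0.31. The tricarboxylic acid cycle had 21 of 24 higher and 2 lower with a median of 0.77, and 13 higher and 7 lower with a median of 0.21 on library totals. Dld and Cs rose from 198 to 733 CPM and 323 to 678 CPM. All 81 cytosolic ribosomal protein genes rose, with a median of 1.06, and 75 rose and none fell on library totals. All 12 tested mitochondrially encoded protein genes rose, among them mt-Co1 (8734 to 21700 CPM), and on library totals 11 rose and none fell. With length and GC trends removed, 6 of these 12 rose and the median went from 1.22 to 0.60. Translation factors had 40 of 50 higher and 7 lower, and 28 higher and 15 lower on library totals, with Eef1a1 and Eef2 at log2 fold changes of 1.10 and 1.25. The proteasome had 36 of 41 higher and 4 lower with a median of 0.68, and 21 higher and 13 lower with a median of 0.12 on library totals. The median transcript length was 1135 bases in the oxidative phosphorylation list and 1059 bases in the ribosomal protein family, against 2927 bases over all tested genes. Over all tested genes the median log2 fold change was 0.58 in the tenth with the shortest transcripts (up to 849 bases) and -0.24 in the tenth with the longest, and with trends of length and GC content removed 72 oxidative phosphorylation genes and 76 ribosomal protein genes rose, with medians of 0.65 and 0.93.

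Sugar, lipid and antioxidant genes moved less evenly. Hif1a and the lactate carrier Slc16a1 rose from 79.7 to 241 CPM and 294 to 819 CPM, and Pkm and Ldha had log2 fold changes of 0.80 and 0.69. The glycolysis and hypoxia list had 23 of 42 higher and 18 lower, and its median of 0.17 turned to -0.38 on library totals. In cholesterol synthesis 19 of 30 rose and 9 fell with a median of 0.43 that turned to -0.13 on library totals. Cyp51 and Hsd17b7 rose from 187 to 519 CPM and 45.5 to 111 CPM, while Insig1, which holds back the pathway, fell from 109 to 46.9 CPM. NRF2 and glutathione genes had 31 of 44 higher and 8 lower with a median of 0.60, and 0.04 on library totals. Hmox1, haem oxygenase, was at 95.5, 91.2 and 95.6 CPM in the control libraries and 341, 349 and 347 CPM in the rebastinib libraries, Prdx6 rose from 227 to 557 CPM, and Keap1, which degrades NRF2, fell from 80.4 to 24.2 CPM. Cpt1a, the entry enzyme of fatty acid oxidation, fell from 33.4 to 5.34 CPM.

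Cell cycle genes were mostly lower. Mki67, the proliferation antigen Ki-67, was at 829, 859.5 and 918 CPM in the control libraries and 207, 211 and 222 CPM in the rebastinib libraries, a log2 fold change of -2.02 ± 0.051 (SE), adjusted p = 3.46e-16. Mcm10, which loads replication enzymes, was at 49, 49.1 and 49.7 CPM in the control libraries and 3.83, 3.66 and 4.19 CPM in the rebastinib libraries, and E2f8, a repressor of E2F targets, was at 93.7, 102 and 115 CPM in the control libraries and 10.5, 11.1 and 9.07 CPM in the rebastinib libraries. Top2a and Kif14, a topoisomerase and a kinesin of cell division, fell from 496 to 139 CPM and 91.3 to 12.3 CPM, Nek2 from 159 to 16.5 CPM, and Uhrf1 and Rrm2 from 286 to 51.9 CPM and 243 to 72.1 CPM. G1/S and replication genes had 54 of 66 lower and 8 higher with a median of -0.87, and G2/M genes 61 of 69 lower and 5 higher with a median of -1.12, against 43.6% of all tested genes lower. With length and GC trends removed, the counts were 48 lower and 13 higher for the first list and 59 lower and 7 higher for the second. DNA repair genes had 54 of 64 lower and 5 higher with a median of -1.09. Brca2, of homologous recombination, was at 44.9, 50.4 and 46.7 CPM in the control libraries and 2.62, 2.58 and 2.6 CPM in the rebastinib libraries, and Timeless and Msh6 fell from 67.9 to 6.78 CPM and 171 to 35.7 CPM.

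Chromatin regulators had 34 of 67 lower and 25 higher, and their median of -0.19 turned to 0.32 with length and GC trends removed. Setdb1, a histone H3 lysine methyltransferase, was at 112, 111 and 111 CPM in the control libraries and 10.2, 11.5 and 12.2 CPM in the rebastinib libraries, Dnmt3a fell from 153 to 30.4 CPM, and Kdm5b, a demethylase, rose from 16.6 to 114 CPM. The large family of Zfp zinc finger genes had 188 of 288 tested members lower and 71 higher with a median of -0.77. Of 67 replication-dependent histone genes in the counts, 20 were tested. Of these, 17 were higher and none lower with a median of 1.78, while the cell cycle lists fell. Transcripts of this family typically end without a poly(A) tail, and whether those counted here had one was not tested. Hist1h1c and Hist1h4i rose from 9.94 to 31.7 CPM and 3.76 to 13.7 CPM. Small nucleolar RNAs, which also lack a tail, had 20 of 28 higher and 1 lower with a median of 1.23, and 0.08 with length and GC trends removed. Both families moved with the rRNA-overlapping share, and its part in them was not tested.

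**Figure D4:**
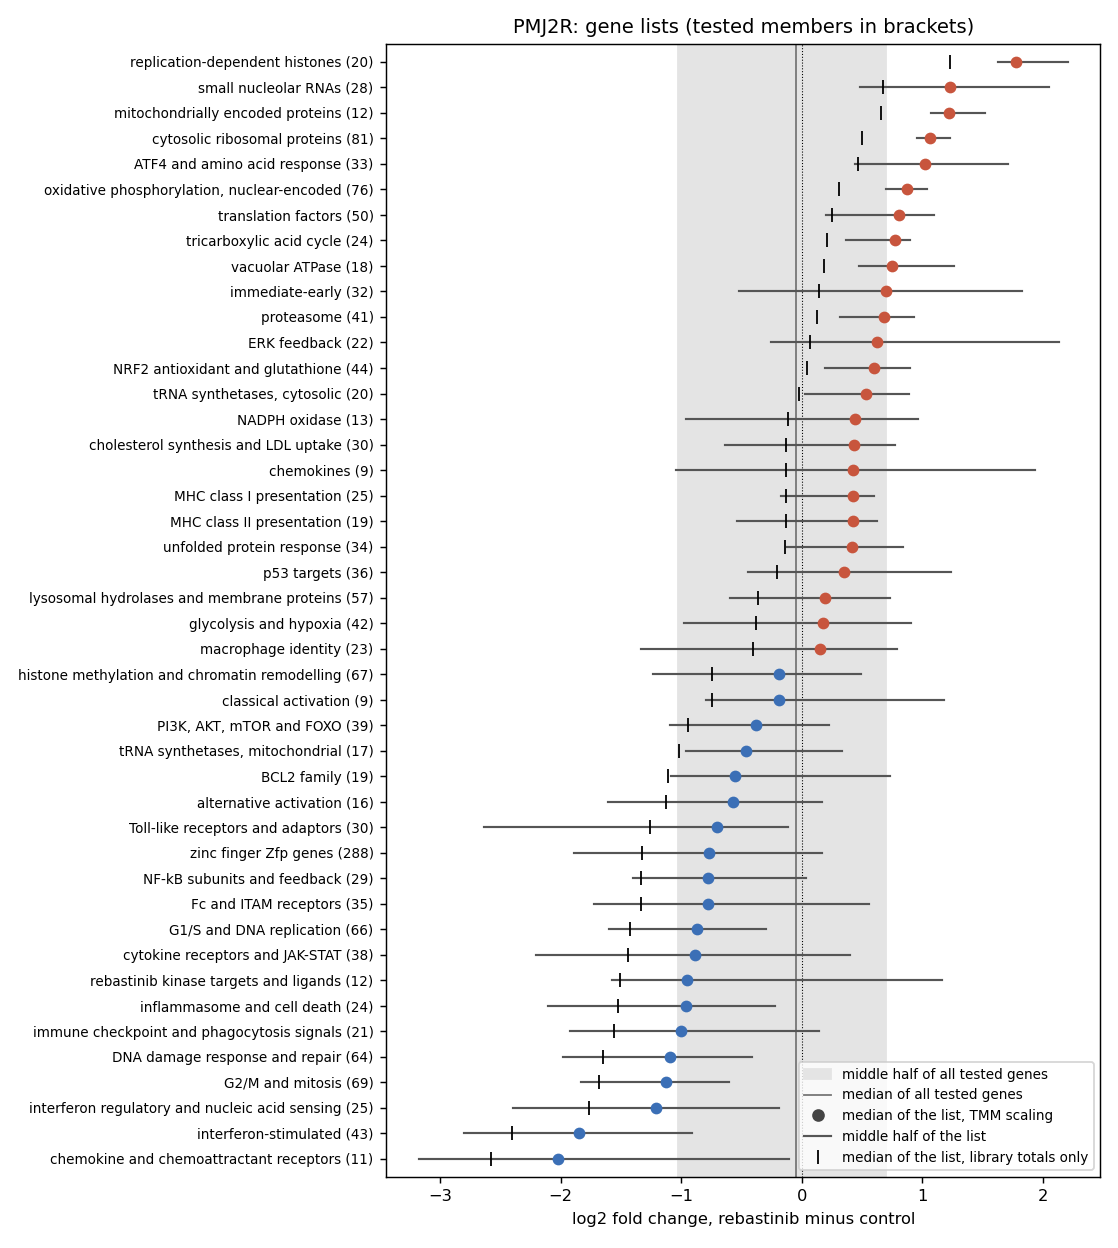
Median log2 fold change (dots, horizontal axis) and middle range of the tested members of 44 gene lists and families (vertical axis), beside the median and middle range of all 14010 tested genes (grey). Black ticks give the medians on library totals, where lists from macrophage identity up to cytosolic tRNA synthetases turn below 0 and the ATF4, oxidative phosphorylation and ribosomal protein lists stay above 0.

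Many of the genes with the smallest p against a 2-fold minimum were described above. Among the higher ones these were Cth, Slc7a11, Sesn2, Ddit4 and Ero1l of the amino acid response list, Spry4 and Ier2. Among the lower ones they were Ptpn6, Pik3cd, Hpgd, Cish, Nek2 and Setdb1. The others had varied functions. Aqp9, a channel for glycerol and water, was at 9.83, 11.2 and 10.2 CPM in the control libraries and 135, 132 and 132 CPM in the rebastinib libraries (3.67 ± 0.062 (SE), adjusted p = 1.28e-17). Pid1 was at 8.88, 8.36 and 8.72 CPM in the control libraries and 88.7, 88.9 and 89.5 CPM in the rebastinib libraries, and Pdzd8, Ugcg (glucosylceramide synthase), Gpr141, Susd6, Ankrd11 and Slc19a2 (a thiamine carrier) rose with log2 fold changes from 2.37 to 3.43. Rassf4 was at 106, 112 and 107 CPM in the control libraries and 2.62, 3.54 and 2.85 CPM in the rebastinib libraries (-5.17 ± 0.088 (SE), adjusted p = 1.28e-17), and Arhgef18 was at 41.8, 43.3 and 45.5 CPM in the control libraries and 0.894, 0.66 and 0.888 CPM in the rebastinib libraries. Scamp5, Cbx6, Ptpn7, Pola2 (a subunit of DNA polymerase alpha), Zc3h4, Spn (CD43) and Hip1 fell with log2 fold changes from -3.88 to -2.86. From lists of proteases and receptors, Spp1, osteopontin, and Adam8 rose from 25.1 to 106 CPM and 21.4 to 71.8 CPM, and Itgb3 fell from 20.4 to 3.29 CPM. Smad3 fell from 33.5 to 3.49 CPM and Actg1 rose from 263 to 1015 CPM.

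The response of PMJ2R was set beside that of ID8, treated with the same dose for the same time. Over 12398 genes tested in both lines the log2 fold changes had a Pearson correlation of 0.703 and a Spearman correlation of 0.703, across genes that are not independent and with library make-up shifted in both lines. The test of the difference called 3618 genes higher and 5066 lower in PMJ2R of 16566, which is 52.4%, or 21.8% and 30.6%. With RLE size factors, another scaling, 4260 were higher and 4198 lower, and on library totals 3214 and 5512. This balance thus depended on the scaling, and the list counts that follow were taken with TMM only. The mean rRNA-overlapping share went from 0.211% to 1.23% in ID8 and from 0.128% to 5.82% in PMJ2R. Of 35 amino acid response genes tested for the difference, 29 responded higher in PMJ2R and 1 lower, and over the 33 tested in both lines the medians were 1.02 in PMJ2R and -0.08 in ID8. Slc7a11 had a log2 fold change of -0.08 in ID8 and Cth 0.20. Immediate-early genes had 23 of 34 higher and 4 lower in PMJ2R, ERK feedback genes 17 of 26 and 5, cholesterol synthesis 21 of 30 and 3, and glycolysis and hypoxia 22 of 45 and 4. Vegfa had -0.43 in ID8 and Spry4 0.17.

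Cell cycle genes responded lower in PMJ2R. G1/S genes had 52 of 66 lower and 3 higher in the test of the difference, with medians of -0.87 in PMJ2R and -0.10 in ID8, and G2/M genes had 54 of 69 lower and 4 higher, with medians of -1.12 and -0.60. Oxidative phosphorylation rose in both lines, with medians of 0.87 and 1.31, and 61 of 76 genes responded lower in PMJ2R. Cytosolic ribosomal protein genes had medians of 1.06 and 1.45 and 58 of 81 lower. For interferon-stimulated genes the difference was called for 12 higher and 16 lower of 54, and the medians over the 36 genes tested in both lines were -1.72 and -1.61. Xbp1 had -3.15 in PMJ2R and -3.01 in ID8, and Brca2 -4.18 and -4.01.

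**Figure D5:**
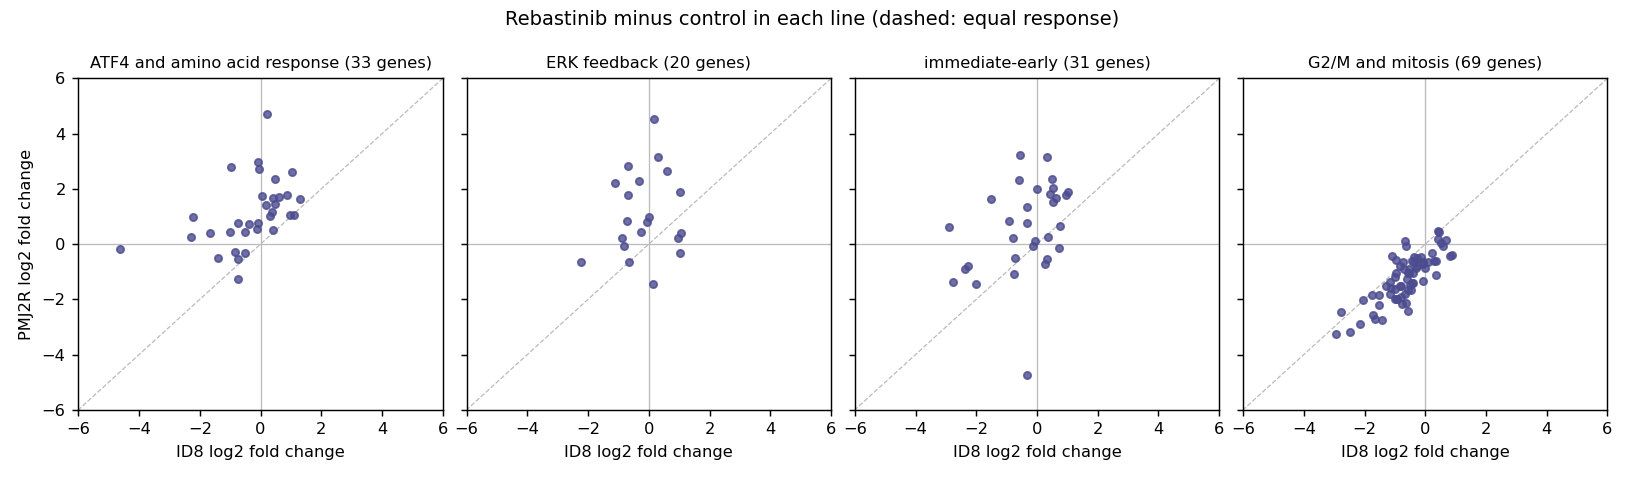
Log2 fold change of rebastinib minus control in PMJ2R (vertical axis) against ID8 (horizontal axis) for the genes of 4 lists tested in both lines, one dot a gene, with a dashed line of equal response. The amino acid response genes lie mostly above the line (medians 1.02 and -0.08) and the G2/M genes mostly below it (medians -1.12 and -0.60).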

How the data were processed

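Gene counts of 12 messenger RNA libraries were deposited as 1 table of raw counts for 55421 Ensembl identifiers, and the 6 PMJ2R columns were used here, with the 6 ID8 columns for the difference between lines. According to the submitters' processing notes the tools were DESeq2, featureCounts, FastQC and STAR 2.6.1c on build GRCm38, with no role or order stated. Not given in the sources used here are the annotation, how multiply mapped reads were handled and whether strand was used, so genes that overlap another gene, pseudogene families and antisense pairs are uncertain. Exon overlap is given beside named genes where it was at least 25 percent of exon bases, and for Csf1r.

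Symbols, positions, lengths and GC content came from GENCODE release M21, and 181 identifiers without a symbol held 0.00316% of the PMJ2R counts. CPM values are TMM-scaled unless library totals are named. Tests used edgeR 4.0.16 in R 4.3.3 (default expression filter, TMM, quasi-likelihood test with robust dispersion, and the test against a 2-fold minimum), with Benjamini-Hochberg adjustment over all tested genes at 0.05. The standard error was the log2 fold change divided by the square root of F. The difference between lines was an interaction contrast over 12 libraries. Shares of counts were compared by exact permutation. Totals of 19025504 to 27070556 counts set the precision, and floors of 3 counts per group cover counting error only. Within PMJ2R, pairs of control libraries differed by chi-square statistics of 3.72 to 11.4 per degree of freedom, and pairs of rebastinib libraries by 1.67 to 2.2. All exceeded sampling noise, so each library was kept. These statistics do not show whether the libraries were separate cultures.

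Named genes were the 15 higher and 15 lower protein-coding genes with the smallest p against 2-fold and at least 10 CPM in 1 group. From each list they were up to 6 members with the smallest p and up to 4 with the highest mean. All kinase targets and ligands, the most abundant and rRNA-overlapping genes, the 10 genes with the smallest p of the difference between lines, and defining markers completed the rule. The members and lists were chosen with earlier results of these data known, so their counts support nothing by themselves, and no list was tested. Scripts were tested on simulated data. The simulation changed a small set of genes in both directions without a shift in library make-up, so it could not test the scaling. Alternatives were DESeq2 1.42.0, limma-voom (limma 3.58.1), other scalings and filters, length and GC offsets (mgcv 1.9.3), a replicate block and leaving out each library.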

Additional observations from a re-analysis of the deposited data

Results flagged for a closer look

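The response to rebastinib of each of the following 10 genes, those with the smallest p of the difference, differed between the lines in the interaction test of edgeR. Differences are the log2 fold change in PMJ2R minus that in ID8, and CPM values here come from the fit over all 12 libraries.

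Id2, an inhibitor of basic helix-loop-helix factors, was at 103, 103 and 95.5 CPM in PMJ2R control and 33.5, 32.1 and 34.8 CPM with rebastinib, and at 4.82, 5.82 and 6.30 CPM in ID8 control and 69.7, 61.9 and 65.3 CPM with rebastinib. Its difference was -5.12 ± 0.12 (SE, adjusted p = 2.52e-19), and the groups moved in opposite directions without overlap in both lines. Id3, of the same family, had a difference of -4.12, from a fall by 0.45 in PMJ2R and a log2 fold change of 3.62 in ID8. The largest difference of the 10 was that of Slc14a1, a urea transporter, at -9.40, with log2 fold changes of -3.13 in PMJ2R and 6.21 in ID8. It was low in PMJ2R, with 4.24 to 4.59 CPM in control and 0.191 to 0.661 CPM with rebastinib.

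Ddit4, of the amino acid response list, had a difference of 3.69, with log2 fold changes of 2.78 in PMJ2R and -0.96 in ID8. Ero1l had 2.70, with 2.71 and -0.04, and its ID8 libraries overlapped between 157 and 184 CPM in control and between 160 and 170 CPM with rebastinib. Junb had 2.86, with 2.32 and -0.60. Kank3 had 5.88, with 2.14 and -3.79, at 1.72 to 2.37 CPM in PMJ2R control. Specc1 had -3.49, with -2.61 and 0.82, and Scamp5 -3.34, with -3.02 and 0.26. Soat1, which esterifies cholesterol, had 2.80, with 0.48 in PMJ2R and -2.37 in ID8, and its PMJ2R value turned to -0.08 on library totals. The sign of all 10 differences was kept under every alternative run for them.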

How the results depend on the processing

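The count of genes called ran from 11301 with DESeq2 to 11781 on library totals among fits over the 14010 genes, but the share called higher was 47.9% with TMM and 26.4% on library totals, with 3104 higher and 8677 lower, and 1546 of the 11730 calls then had the opposite sign. With length and GC trends removed 53.5% were called higher, 6212 against 5410, 637 of the calls had the opposite sign, and 2094 higher and 2346 lower passed the 2-fold minimum. Against the 2-fold minimum, library totals gave 653 higher and 4680 lower, and a mean of at least 5 CPM, which tested 9817 genes, gave 908 higher and 1925 lower, 2833 in all. Leaving out 1 library gave 11520 to 11972 calls, 4361 to 4600 against 2-fold, and 8104 to 8950 for the difference between lines. The difference in the noncoding RNA share lay between -0.00129 and 0.0150 percentage points, so its sign rested on single libraries.

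Replicate numbers did not pair the libraries: correlations of deviations between libraries of the same number were 0.093, -0.003 and 0.046. With the replicate block 11726 genes were called, 5630 higher and 6096 lower.

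Library totals turned Spi1 (-0.25), Hspa5 (-0.16) and Soat1 (-0.078). Cdkn1a was 0.013 with DESeq2 and RLE size factors, 0.26 with length and GC trends removed (0.26 also with the block) and between -0.069 and 0.012 with 1 library left out. Medians that turned on library totals were macrophage identity -0.41, unfolded protein response -0.14, cytosolic tRNA synthetases -0.022, chemokines -0.13, MHC class I -0.13 and class II -0.13, lysosomal -0.37, NADPH oxidase -0.12, p53 targets -0.21, glycolysis -0.38 and cholesterol -0.13. With TMM factors from the remaining genes, macrophage identity was -0.044, lysosomal -0.0015 and glycolysis -0.019 (-0.050 with no expression filter). Classical activation was 1.12 at a mean of at least 5 CPM and 0.16 with length and GC trends removed, also with the block. NADPH oxidase was -0.12 at that mean. Chromatin was 0.32 with trends removed, also with the block. The cause of these turns was not tested beyond the change of scale.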
